A study of Homo sapiens with 36 samples.

Results

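The genes that carry the IL-1 signal from the ligand to the first kinases were followed in A549 cells, an established human lung adenocarcinoma line, grown with or without IL-1β. The group holds 10 of the 63677 genes listed in the deposited count tables, chosen by symbol for their place in the pathway. They are the ligands IL1A and IL1B and the antagonist IL1RN, the receptor chains IL1R1 and IL1RAP, the adaptor MYD88, and the kinases IRAK1, IRAK2, IRAK3 and IRAK4. Cells received IL-1β at 1 ng/ml in RPMI medium with serum and were collected at days 6, 15 and 21 of exposure, or, after 21 days of exposure, at days 6, 15 and 30 of culture in medium from which it had been removed. At each of the 6 time points, untreated A549 cells in the same medium served as the control. Every group had 3 libraries, which the labels call biological replicates, so that 36 libraries in 12 groups were compared. All came from 1 cell line, and nothing in the labels says whether replicates were kept apart through the whole time course, so p-values measure the spread between these libraries.

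IL-1α and IL-1β signal by binding IL1R1, which then recruits IL1RAP, and the paired intracellular domains attract MYD88. MYD88 assembles IRAK4 with IRAK1 and IRAK2, and the complex passes the signal through TRAF6 and TAK1 to the IκB kinases and thus to NF-κB and AP-1. The pathway is held in check by the antagonist IL1RN, the decoy receptor IL1R2 and the kinase-like inhibitor IRAK3, and since NF-κB can drive the ligand genes, IL-1 is known for its capacity to induce itself in epithelial and myeloid cells.

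The ligands are neighbours on chromosome 2. On GRCh37, IL1A (ENSG00000115008) lies on the minus strand at chr2:113531502-113542070, IL1B (ENSG00000125538) on the minus strand at chr2:113587328-113594393 and IL1RN (ENSG00000136689) on the plus strand at chr2:113856892-113891593. IL1R1 (ENSG00000115594) is on the same chromosome, on the plus strand at chr2:102681004-102796334. IRAK2 (ENSG00000134070) lies on the plus strand at chr3:10206603-10285429, on the chromosome that also holds IL1RAP (ENSG00000196083) at chr3:190231840-190377539 and MYD88 (ENSG00000172936) at chr3:38180043-38184515. IRAK1 (ENSG00000184216) is on the minus strand at chrX:153275957-153285353. IRAK3 (ENSG00000090376) at chr12:66582975-66648402 and IRAK4 (ENSG00000198001) at chr12:44152747-44192110 lie on the plus strand. No member shared exonic bases with another gene on its own strand, and the share overlapped by a gene on the opposite strand was at most 2.52%, in IRAK3.

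IL1A, IL1B and IRAK2 were the members that rose, and the 250 bases before their first-listed RefSeq transcription start are therefore shown. The sequences are on GRCh38.p14, the build of the RefSeq table, whereas all other positions are on GRCh37. They read 5′ to 3′ on the strand of the gene, with matches to the κB letters GGGNNNNNCC or the AP-1 letters TGANTCA, on either strand, in capitals.
IL1A, chr2:112784494-112784743, minus strand: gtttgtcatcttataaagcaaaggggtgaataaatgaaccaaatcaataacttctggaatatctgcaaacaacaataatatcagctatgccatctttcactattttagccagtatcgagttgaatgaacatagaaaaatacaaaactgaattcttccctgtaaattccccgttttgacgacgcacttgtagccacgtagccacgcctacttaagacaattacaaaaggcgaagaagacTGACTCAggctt
IL1B, chr2:112836780-112837029, minus strand: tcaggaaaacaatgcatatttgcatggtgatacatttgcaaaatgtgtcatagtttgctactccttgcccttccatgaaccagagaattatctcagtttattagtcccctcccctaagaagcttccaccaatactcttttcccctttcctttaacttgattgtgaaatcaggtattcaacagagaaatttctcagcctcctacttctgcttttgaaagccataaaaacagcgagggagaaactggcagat
IRAK2, chr3:10164669-10164918, plus strand: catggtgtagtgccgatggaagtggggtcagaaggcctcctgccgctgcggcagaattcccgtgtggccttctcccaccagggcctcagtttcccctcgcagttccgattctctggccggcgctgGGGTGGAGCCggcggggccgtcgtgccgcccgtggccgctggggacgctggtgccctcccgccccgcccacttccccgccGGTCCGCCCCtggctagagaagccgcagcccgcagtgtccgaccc
The IL1A window held 1 match to the AP-1 letters, beginning 12 bases before the start, and none to the κB letters. The window of the other listed IL1A start, not shown, held 2 matches to the AP-1 letters, beginning 105 and 55 bases before it. It held none to the κB letters. The IL1B window held neither. The IRAK2 window held 2 matches to the κB letters, beginning 125 and 45 bases before the start, and none to the AP-1 letters. Of 35116 RefSeq windows of the same 250 bases, 54.4% held the κB letters and 6.57% the AP-1 letters. A match describes the letters in the window, not a site of binding, and the absence of one says nothing of the factor.

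Levels are in CPM, the reads of a gene scaled to a fixed library size with edgeR's TMM factors. Differential expression was tested with edgeR's quasi-likelihood F-test in 1 fit of all 36 libraries, with Benjamini-Hochberg adjustment over the 19180 genes that had enough reads. A gene was called where its fold change was over 2 and its adjusted p was below 0.05, referred to as both thresholds. The SE given with a log2 change is the size of the change divided by the square root of the test's F statistic. It is only approximate where reads are few. IL1A and IL1B entered the test only because of their counts in exposed groups, and IL1RN and IRAK3 had too few reads to be tested, which left 8 members. Library depth ran from 9116032 to 23570026 reads on genes. In 11 libraries, 6 from control and 5 from exposed cells, mitochondrial genes took 11.8% to 24.6% of these reads, against 5.61% to 7.75% in the other 25, and 8 of the 11 were collected after withdrawal and 8 are of replicate 2. Bulk RNA cannot tell fewer cells that express a gene from less RNA per cell. As a check of the stimulus, at days 6, 15 and 21 the chemokine gene CXCL8 was higher by 7.10, 5.85 and 6.91 on the log2 scale, TNFAIP3 by 4.05, 3.15 and 3.21 and NFKBIA by 2.17 at day 6 and 1.89 at day 21, with edgeR adjusted p of at most 4.06e-06 for all of these and for NFKBIA at day 15. After withdrawal, TNFAIP3 was still past both thresholds at days 6 and 30, with log2 changes of 1.27 (edgeR adjusted p = 0.00047) and 1.09 (adjusted p = 0.00503), while CXCL8 and NFKBIA did not pass both at any of these time points. TNFAIP3 at day 15 after withdrawal, at 0.92 (edgeR adjusted p = 0.0202), missed only the fold threshold. So did NFKBIA at days 6 and 30, at 0.75 (adjusted p = 0.0274) and 0.82 (adjusted p = 0.0241), but at day 15 it was at 0.49 (adjusted p = 0.345). The epithelial markers EPCAM, KRT7, KRT8, KRT18 and CDH1 summed to 4202 to 9160 CPM in control and 2045 to 6732 CPM in exposed libraries, and 3 of the 5 were lower past both thresholds at each time point with IL-1β. Markers of monocytes and macrophages, the cells best known for making IL-1, summed to 2.57 to 11.0 CPM in control and 2.98 to 17.7 CPM in exposed libraries, TYROBP was at 0 in all 36 libraries, and 0 of the 3 tested of the 8 passed both thresholds. Of the 5 fibroblast markers only COL1A1 was tested, which was higher past both thresholds at days 6 and 21, and the list summed to 1.03 to 4.20 CPM in control and 1.36 to 3.42 CPM in exposed libraries. The 4 matched endothelial markers summed to at most 0.405 CPM. The part of these other cell types in the results was not tested.

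With IL-1β present, 2 of the 8 tested members passed both thresholds at day 6 (IL1B and IRAK2) and 3 of 8 at days 15 and 21 (IL1A, IL1B and IRAK2), all of them higher in the exposed cells. Among all tested genes, 2.77%, 4.24% and 4.26% passed at the same time points. After withdrawal, 1 of 8 passed at day 6 (IL1B) and 0 of 8 at days 15 and 30, where 1.8%, 0.954% and 0.897% of all genes did. At an unadjusted p under 0.05 stood 2 members at day 15 after withdrawal, IL1B and IRAK2, and 1 at day 30, IRAK2, beside 8.75% and 8.35% of all genes. DESeq2's Wald test also called 0 at both time points, and edgeR's likelihood ratio test called 1 at day 15, IL1B, and 0 at day 30. Libraries of exposed and control cells did not overlap for 4, 4 and 6 of the 8 members at days 6, 15 and 21 and for 1, 2 and 2 at days 6, 15 and 30 after withdrawal, beside 21.8%, 25.4%, 29%, 10.8%, 10.9% and 11.9% of all tested genes.

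IL1A, which encodes IL-1α, was nearly silent without IL-1β. At day 6, its level was 0.0654, 0.0870 and 0.236 CPM in the 3 control libraries and 0.483, 0.804 and 0.682 CPM in the exposed ones. At day 15 it was 0.118, 0.108 and 0.0495 CPM in control and 1.40, 1.22 and 3.21 CPM in exposed cells, and at day 21 it was 0.114, 0 and 0.0797 CPM in control and 3.37, 2.47 and 3.28 CPM in exposed cells. Every exposed library lay above every control library at all 3 time points, although the values rest on few reads. The exposed library of 3.21 CPM at day 15 has a high mitochondrial share. Pooled over libraries, 32 reads stood against 6 at day 6, a 4.79-fold ratio (exact 95% interval 1.97 to 14.0, counting error only). The pooled ratio was 19.0 (7.80 to 60.0) at day 15, with 80 against 5 reads, and 46.2 (17.7 to 171) at day 21, with 175 against 4 reads. In the edgeR fit, the log2 fold change was 2.21 ± 0.73 (SE, n = 3 per group, adjusted p = 0.097) at day 6, 4.26 ± 0.68 (adjusted p = 7.05e-05) at day 15 and 5.35 ± 0.67 (adjusted p = 2.08e-06) at day 21. Thus the call at day 6 was missed on the adjusted p, and it was made when the 11 libraries of high mitochondrial share were left out (2.05, adjusted p = 0.0199).

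After withdrawal, IL1A stood on 12, 8 and 5 reads in the exposed cells of days 6, 15 and 30. At day 6 after withdrawal the exposed libraries held 0.218, 0.464 and 0.232 CPM and the control libraries 0.258, 0 and 0.0429 CPM. At day 15 they held 0.128, 0.364 and 0.0466 CPM, against 0.455, 0 and 0 CPM in control cells, where all 7 control reads came from replicate 1. At day 30 they held 0.0679, 0.130 and 0.0935 CPM against 0, 0 and 0.0492 CPM, that is 5 reads against 1. The pooled ratios were 3.86 (1.04 to 21.3), 0.788 (0.250 to 2.55) and 4.53 (0.507 to 214), and none of the 3 fitted changes passed, with edgeR adjusted p of 0.604, 0.959 and 0.784. Without replicate 1, the fitted log2 change at day 15 after withdrawal went from -0.22 to 4.60, since no control read was left.

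IL1B, the gene of the cytokine that was added to the medium, rose as well. At day 6, the control libraries held 0.327, 0 and 0 CPM and the exposed libraries 1.52, 1.02 and 0.536 CPM. At day 15, they held 0, 0.0542 and 0.0495 CPM against 2.10, 2.32 and 4.03 CPM, and at day 21, 0, 0.121 and 0.0797 CPM against 3.26, 2.69 and 4.27 CPM. As for IL1A, the groups did not overlap, and the 4.03 CPM at day 15 is from the same mitochondrial-rich library as the highest IL1A value of that day. With such libraries left out, the log2 changes at day 15 were 3.77 for IL1A and 5.70 for IL1B, both past both thresholds. The pooled ratio was 8.44 (exact 95% interval 3.37 to 27.2) at day 6, 71.8 (19.4 to 599) at day 15 and 52.8 (20.3 to 196) at day 21, from 47, 121 and 200 reads in exposed cells against 5, 2 and 4 in control cells. Fitted log2 changes were 3.05 ± 0.84 (SE, n = 3 per group, edgeR adjusted p = 0.0321), 5.99 ± 0.87 (adjusted p = 2.99e-05) and 5.52 ± 0.77 (adjusted p = 1.53e-05). The call at day 6 was lost when any 1 replicate was left out, with adjusted p of 0.118, 0.206 and 0.158 without replicates 1, 2 and 3. With control counts this low, the fitted values depend on the prior count and are not bounds.

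IL1B was the only member past both thresholds after withdrawal. At day 6 after withdrawal, the exposed libraries still held 0.928, 1.62 and 0.637 CPM, above the control libraries with 0, 0.259 and 0 CPM, a pooled ratio of 13.5 (4.31 to 68.1) and a log2 change of 3.65 ± 0.94 (SE, n = 3 per group, edgeR adjusted p = 0.0292). This call was also lost when any 1 replicate was left out, with adjusted p of 0.398, 0.0835 and 0.251. At day 15 after withdrawal, the exposed libraries held 0.577, 1.02 and 0.373 CPM and the control libraries 0.130, 0.102 and 0 CPM. These groups did not overlap either, and the pooled ratio was 7.13 (2.22 to 36.4), but the log2 change of 2.79 ± 0.99 had an adjusted p of 0.251 in edgeR's quasi-likelihood test. At day 30 after withdrawal, 5 reads were found in exposed cells (0, 0.260 and 0.0468 CPM) and 0 in control cells. Of the 5 reads, 4 came from replicate 2, the groups overlapped at 0, and the exact 95% interval of the pooled ratio reached down to 0.831, so that a difference was not detectable at this depth.

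IL1RN, the gene of the receptor antagonist, was barely detected. Only 5 reads were counted, in 4 of the 36 libraries, with at most 0.232 CPM in any library. Over all libraries, a count of 3 corresponds to 0.00516 CPM. Of the 5 reads, 4 came from exposed cells and 1 from a control library at day 30 after withdrawal, and no change can be read from them. All 4 libraries with a read have a high mitochondrial share.

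**Figure D1:**
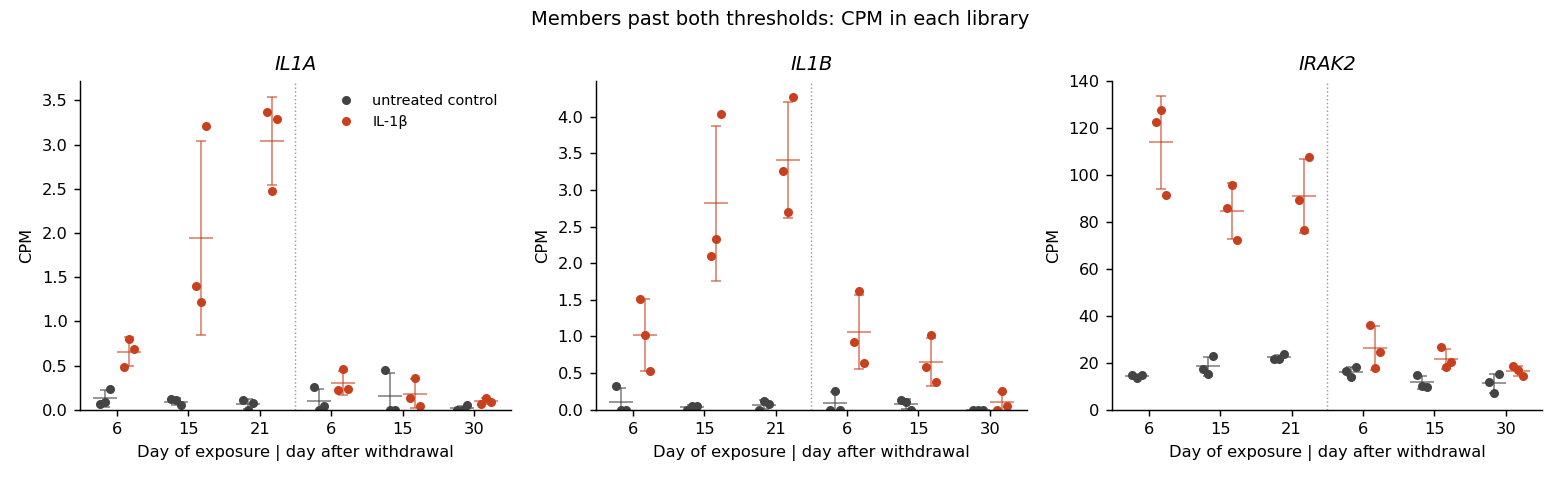
CPM of IL1A, IL1B and IRAK2 in each library (points), with the group mean and SD (bars, cut at 0) for control (grey) and IL-1β-exposed (red) cells. The time axis gives the day of exposure left of the dotted line and the day after withdrawal right of it. IL1A and IL1B have their highest group means at day 21, 3.04 and 3.41 CPM, and IRAK2 at day 6, 113.9 CPM.

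The receptor chain that binds the ligand, IL1R1, did not pass the test at any time point. At day 6, it held 59.3, 70.5 and 43.6 CPM in control and 38.2, 45.7 and 35.8 CPM in exposed cells. At day 15, the values were 43.6, 38.9 and 45.0 CPM in control and 30.4, 31.5 and 51.0 CPM in exposed cells. The control library of 70.5 CPM and the exposed library of 51.0 CPM are of high mitochondrial share, as are 5 of the 6 libraries of 55 CPM or more. At day 21, the exposed libraries lay within 27.5 to 28.9 CPM, all below the control libraries at 35.6 to 40.5 CPM. The log2 fold changes were -0.53 ± 0.19, -0.18 ± 0.19 and -0.43 ± 0.19 (SE, n = 3 per group, edgeR adjusted p = 0.15, 0.657 and 0.277). After withdrawal they ran from -0.15 to -0.05, and the groups overlapped at all 3 time points.

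IL1RAP, the accessory chain that completes the signalling receptor, was higher in all exposed libraries while IL-1β was present, by less than 2-fold. At day 6, the control libraries held 4.97, 5.83 and 4.49 CPM and the exposed libraries 6.97, 8.70 and 11.6 CPM. At day 15, the values were 6.45, 5.36 and 3.96 CPM against 9.31, 8.71 and 9.21 CPM, and at day 21 they were 6.15, 5.31 and 7.09 CPM against 8.85, 7.93 and 8.99 CPM. The groups did not overlap at these 3 time points. The log2 changes of 0.84 ± 0.27, 0.79 ± 0.26 and 0.47 ± 0.26 (SE, n = 3 per group) had edgeR adjusted p of 0.0774, 0.0751 and 0.494. With the mitochondrial-rich libraries left out, the changes were 0.97 (adjusted p = 0.0142), 0.79 (adjusted p = 0.0294) and 0.54 (adjusted p = 0.148), still under the fold threshold. After withdrawal, IL1RAP was at 4.87 to 9.39 CPM in exposed and 3.87 to 8.03 CPM in control cells at day 6, 4.15 to 8.15 against 4.74 to 7.82 CPM at day 15, and 4.23 to 4.68 against 4.87 to 5.66 CPM at day 30, where the exposed libraries were the lower ones and the log2 change was -0.22 ± 0.27.

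**Figure D2:**
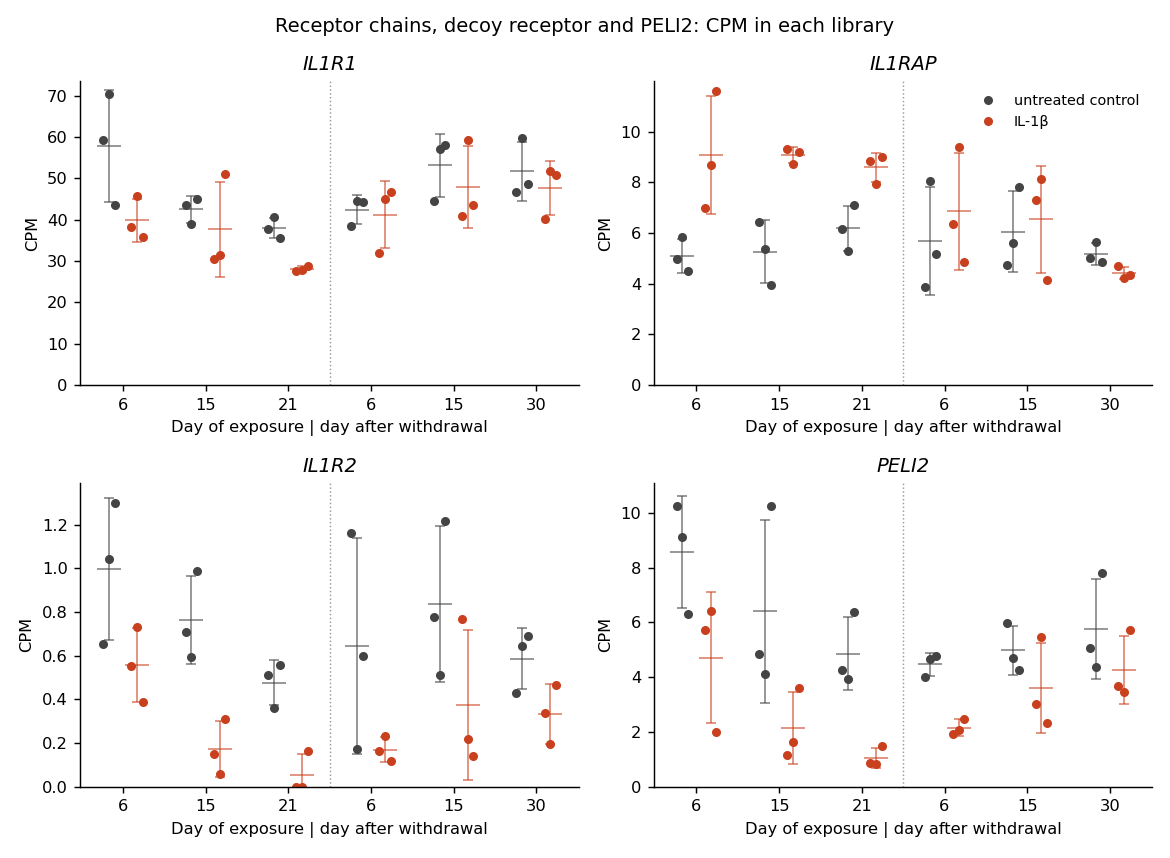
CPM in each library (points) of IL1R1, IL1RAP, the decoy receptor IL1R2 and PELI2, with group means and SD (bars, cut at 0), for control (grey) and IL-1β-exposed (red) cells over the days of exposure and, right of the dotted line, after withdrawal. At day 21, exposed libraries lie below all control libraries for IL1R1, IL1R2 and PELI2 and above them for IL1RAP.

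MYD88, the adaptor shared with the Toll-like receptors, did not differ beyond the spread between libraries. Its level was 15.6 to 29.9 CPM in all control libraries and 16.6 to 27.1 CPM in all exposed ones. At day 21, the control libraries held 20.5, 19.9 and 21.1 CPM and the exposed libraries 20.0, 23.7 and 20.6 CPM. The log2 changes at the 6 time points lay between -0.15 and 0.22 (SE 0.20, n = 3 per group), the groups overlapped throughout, and the lowest edgeR adjusted p was 0.816. The median of MYD88 was 25.5 CPM in the 6 control libraries of high mitochondrial share and 18.9 CPM in the other 12, and 25.6 CPM against 19.0 CPM in the 5 and 13 exposed libraries.

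Among the kinases, IRAK2 alone rose, and of the 8 tested members it had the smallest p at days 6, 15 and 21 of exposure. At day 6, the control libraries held 14.9, 13.7 and 14.7 CPM and the exposed libraries 123, 128 and 91.3 CPM, a 7.87-fold change. At day 15, the values were 17.4, 15.1 and 23.1 CPM in control and 85.8, 95.9 and 72.4 CPM in exposed cells, a 4.57-fold change. At day 21, they were 21.5, 21.8 and 23.6 CPM in control and 89.3, 76.5 and 108 CPM in exposed cells, a 4.09-fold change. No control library at any time exceeded 23.6 CPM, and no exposed library in the presence of IL-1β was under 72.4 CPM. The log2 changes were 2.98 ± 0.25, 2.19 ± 0.25 and 2.03 ± 0.24 (SE, n = 3 per group, edgeR adjusted p = 4.90e-09, 4.41e-07 and 1.12e-06). With the 11 mitochondrial-rich libraries left out, these changes were 2.96, 2.29 and 2.16, and each still passed.

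After withdrawal, the IRAK2 level did not pass the test against the control cells at any of the 3 time points. At day 6 after withdrawal, the exposed libraries held 36.2, 17.6 and 24.8 CPM and the control libraries 16.6, 14.2 and 18.0 CPM. At day 15, they held 26.6, 18.4 and 20.2 CPM, all above the control libraries with 14.9, 10.1 and 9.85 CPM. At day 30, they held 18.7, 16.8 and 14.5 CPM against 11.7, 7.08 and 15.1 CPM, with overlap. The log2 changes of 0.69 ± 0.24, 0.90 ± 0.24 and 0.54 ± 0.24 (SE, n = 3 per group) had edgeR adjusted p of 0.174, 0.062 and 0.519, and all were under the fold threshold. The control libraries of 16.6, 14.2, 10.1, 9.85 and 7.08 CPM are of high mitochondrial share. So are the exposed libraries of 17.6, 18.4 and 16.8 CPM. Over all time points, the median of IRAK2 was 11.9 CPM in the 6 control libraries of high share and 16.3 CPM in the other 12.

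IRAK1, the most abundant member, showed no change past the test, but its level moved with the mitochondrial share of the library. It held 128 to 240 CPM in control and 210 to 321 CPM in exposed cells at day 6, 184 to 275 against 68.1 to 297 CPM at day 15, and 270 to 286 against 265 to 298 CPM at day 21. After withdrawal, it held 123 to 205 CPM in control and 132 to 345 CPM in exposed cells at day 6, 109 to 209 against 109 to 260 CPM at day 15, and 75.3 to 203 against 171 to 237 CPM at day 30. All groups overlapped, and the log2 changes lay between -0.16 and 0.54 with an SE of 0.41 (n = 3 per group, lowest edgeR adjusted p = 0.816). In control cells, IRAK1 was at 75.3 to 177 CPM in the 6 libraries of high mitochondrial share and 168 to 286 CPM in the other 12. In exposed cells it was at 68.1 to 288 CPM in 5 and 171 to 345 CPM in 13 libraries. Without the 11 libraries, the log2 changes lay between 0.04 and 0.57, none past the test, with a single control library left at days 6 and 15 after withdrawal.

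**Figure D3:**
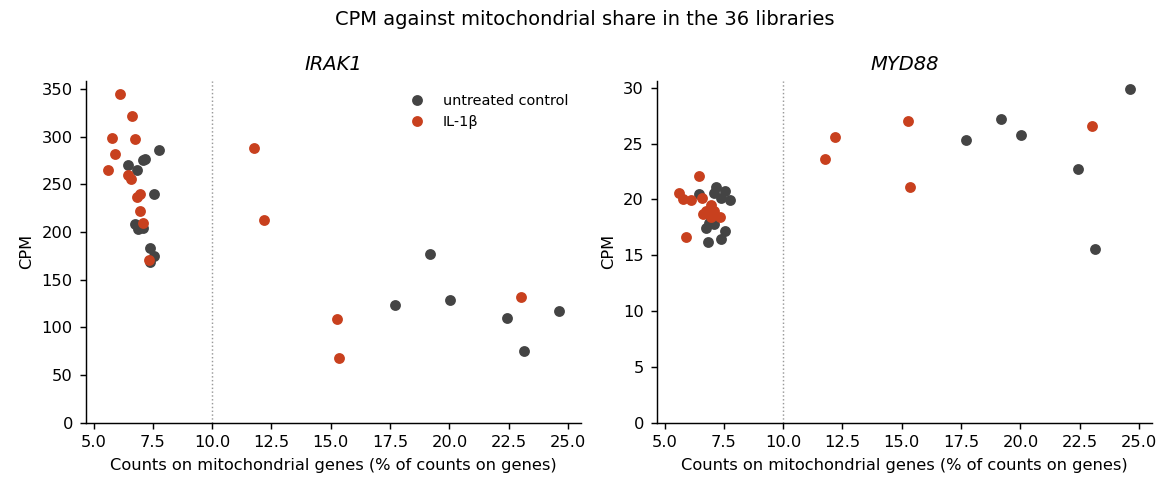
CPM of IRAK1 and MYD88 in each of the 36 libraries against the share of its reads on mitochondrial genes, for control (grey) and IL-1β-exposed (red) cells, with a dotted line at 10%. The 11 libraries right of the line reach down to 68.1 CPM of IRAK1 and up to 29.9 CPM of MYD88.

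IRAK4, the kinase that starts the cascade within the complex, was at 12.7 to 21.4 CPM in control and 15.1 to 26.5 CPM in exposed libraries. At day 15, the control libraries held 14.5, 12.7 and 16.3 CPM and the exposed libraries 18.3, 16.2 and 26.5 CPM, of which the highest has a high mitochondrial share. At day 21, all exposed libraries (18.7, 16.1 and 19.5 CPM) lay above all control libraries (15.8, 13.9 and 13.1 CPM). The log2 changes were 0.17, 0.48 and 0.34 during exposure and 0.09 to 0.15 after withdrawal (SE 0.18, n = 3 per group), and the lowest edgeR adjusted p was 0.119. IRAK3, an inhibitor of the complex best known from macrophages, was at 0.102 to 1.02 CPM, with 207 reads over the 36 libraries. Its highest group mean, 0.669 ± 0.304 CPM (SD, n = 3), was in exposed cells at day 30 after withdrawal, against 0.317 ± 0.165 CPM in the control cells.

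**Figure D4:**
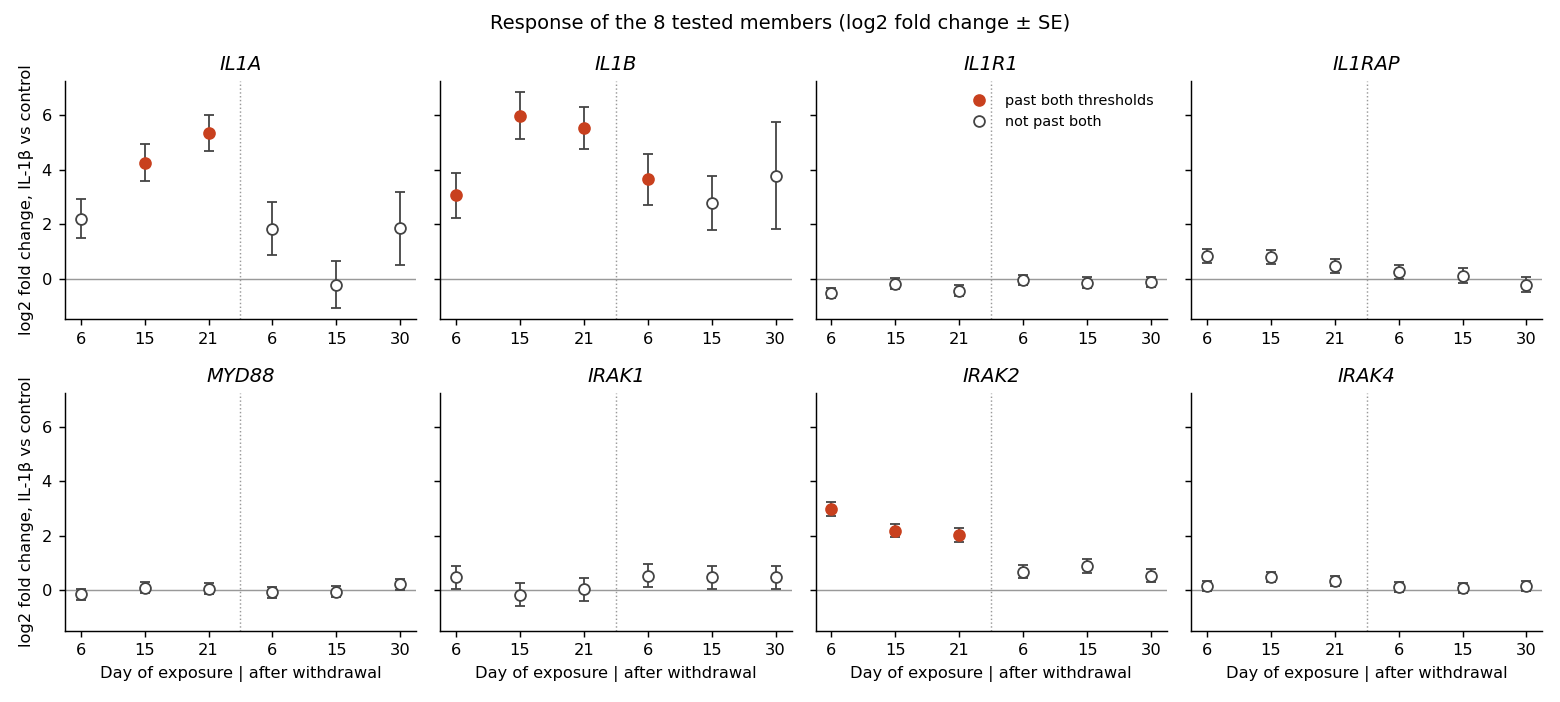
Log2 fold change ± SE of IL-1β-exposed against control cells for the 8 tested members at days 6, 15 and 21 of exposure and, right of the dotted line, at days 6, 15 and 30 after withdrawal (edgeR, n = 3 per group). Filled points passed both thresholds, and they are found in IL1A, IL1B and IRAK2 alone.

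The time courses of the 3 genes that rose were compared by testing the difference between responses. For IL1A, the day 21 response minus the day 6 response was 3.14 ± 1.18 (SE, log2 scale), and for IL1B it was 2.46 ± 1.42, whereas for IRAK2 it was -0.94 ± 0.34. The value of IL1B was -1.56 without replicate 1, which held all 5 of its control reads at day 6. None of the 3 passed the edgeR test (adjusted p = 1), nor did any of the 8 members, and 0.0104% of all genes were called in this comparison. At an unadjusted p under 0.05 stood 2 members, IL1A and IRAK2, beside 2.24% of all genes. The response at day 6 after withdrawal minus that at day 21 was -3.52 ± 1.52 for IL1A, -1.87 ± 1.65 for IL1B and -1.34 ± 0.34 for IRAK2. The value of IL1B turned to 0.65 without replicate 2 and to 1.19 with the 11 mitochondrial-rich libraries left out. In both cases no control read of IL1B was left at day 6 after withdrawal, so no direction can be given for this difference. In exposed cells, the mean of IL1B was 3.41 CPM at day 21 and 1.06 CPM at day 6 after withdrawal. Again 0 of 8 members were called by edgeR, beside 0.141% of all genes, and 2, IL1A and IRAK2, were at an unadjusted p under 0.05, beside 2.81% of all genes. Between day 30 after withdrawal and day 21, 1 of 8 was called, beside 0.73% of all genes, and it was also the only member at an unadjusted p under 0.05, beside 6.05% of all genes. This was IRAK2, with a difference of -1.49 ± 0.34 (edgeR adjusted p = 0.0261). The call was lost without replicate 1 (-1.57, adjusted p = 0.575) and without replicate 3 (-1.06, adjusted p = 0.575). For the ligands, the same difference was -3.50 ± 2.51 for IL1A and -1.75 ± 5.39 for IL1B. Errors derived from the F statistic are not reliable at the few reads of day 30, so no statement is made on the ligands.

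Levels of the members were set side by side as mean CPM per kilobase of exon at day 21. In control cells, IRAK1 was at 65.1 ± 1.81 (SD, n = 3), followed by IRAK2 at 6.50 ± 0.337, IL1R1 at 5.33 ± 0.345, MYD88 at 4.89 ± 0.138, IRAK4 at 1.95 ± 0.187 and IL1RAP at 0.552 ± 0.0794. IL1R1 and MYD88 overlapped between libraries. IRAK3, IL1A, IL1B and IL1RN were at 0.0418, 0.0320, 0.0222 and 0 CPM per kilobase, and the first 3 of these overlapped as well. In exposed cells, the order was IRAK1 (66.6 ± 3.97), IRAK2 (26.6 ± 4.57), MYD88 (5.12 ± 0.464), IL1R1 (3.94 ± 0.101), IRAK4 (2.47 ± 0.241), IL1A (1.51 ± 0.246), IL1B (1.13 ± 0.265) and IL1RAP (0.766 ± 0.0511). Per length, both ligands thus stood above IL1RAP at day 21, while IL1A and IL1B overlapped between libraries. The length was all annotated exon bases of a gene, 11210 for IL1RAP, 2017 for IL1A and 3009 for IL1B. In CPM without this scaling, IL1RAP was the higher in exposed cells at day 21, at 8.59 against 3.04 and 3.41. The order of IL1RAP and the ligands therefore depends on the length used.

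The other genes of the pathway were counted from lists chosen by function. Of 8 other ligands of the IL-1 family, only IL18 had enough reads, and it did not pass at any time point, with log2 changes from -0.11 to 0.75. Of 9 other receptors and soluble inhibitors, 4 were tested, and 1 passed, IL1R2 at days 15 and 21. This decoy receptor binds IL-1 without signalling. It entered the test only because of its counts in control libraries. At day 15, it held 0.710, 0.596 and 0.989 CPM in control and 0.150, 0.0581 and 0.310 CPM in exposed cells, and at day 21, 0.513, 0.362 and 0.558 CPM against 0, 0 and 0.164 CPM. No exposed library reached the lowest control library at either time. The log2 changes were -2.27 ± 0.66 and -2.68 ± 0.75 (SE, n = 3 per group, edgeR adjusted p = 0.0323 and 0.0256), from 43 reads in control against 7 in exposed cells and 29 against 4. The call at day 15 was lost when any 1 replicate was left out (adjusted p 0.122 to 0.289), and that at day 21 without replicate 1 (0.427) or replicate 2 (0.152). It was also lost when the 11 mitochondrial-rich libraries were left out (0.0596). At day 6 and after withdrawal, IL1R2 did not pass. Its log2 change was -0.87 at day 6 (edgeR adjusted p = 0.636). At days 6, 15 and 30 after withdrawal it was -1.86, -1.18 and -0.74 (edgeR adjusted p = 0.246, 0.588 and 0.802).

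Of 14 genes of the TRAF6, TAK1 and IKK step, 13 were tested, and the gene id matched to the symbol IKBKG was at 0 in every library. Symbols were matched for 55665 of the 63677 listed genes, so this 0 does not show that IKBKG RNA was absent. PELI2, a ubiquitin ligase of the Pellino family that acts on IRAK proteins, passed at days 15 and 21, and it was lower in exposed cells. At day 15, it held 4.85, 4.12 and 10.2 CPM in control and 1.15, 1.63 and 3.62 CPM in exposed cells, and at day 21, 4.27, 3.92 and 6.37 CPM against 0.869, 0.823 and 1.48 CPM. The groups did not overlap, and the log2 changes were -1.65 ± 0.43 and -2.17 ± 0.44 (SE, n = 3 per group, edgeR adjusted p = 0.0151 and 0.00154). The day 15 call was lost without replicate 1 (0.374) and replicate 2 (0.0683), and the day 21 call without replicate 1 (0.143). PELI2 did not pass at day 6, with a log2 change of -0.87 (edgeR adjusted p = 0.374), or after withdrawal. At days 6, 15 and 30 after withdrawal the change was -1.05, -0.49 and -0.44 (edgeR adjusted p = 0.326, 0.851 and 0.825). The other 12, among them TRAF6, TAB1, TAB2, TAB3, MAP3K7, CHUK and IKBKB, did not pass at any time point. Over the 13, the median log2 change at day 21 was -0.05, beside -0.01 over all genes tested. Of 13 genes for the processing and release of IL-1, such as caspases, inflammasome sensors and calpains, 9 were tested and 0 passed both thresholds in edgeR's test. Their median log2 change at day 21 was 0.44, and CAPN2, a calpain subunit, had an edgeR adjusted p of 0.00258 and 0.00825 at days 15 and 21 with log2 changes of only 0.50 and 0.44. At the 6 time points in order, 2, 3, 3, 2, 4 and 1 of the 9 had an unadjusted p under 0.05, beside 11.8%, 17.1%, 13.7%, 9.59%, 8.75% and 8.35% of all genes. Both edgeR's likelihood ratio test and DESeq2's Wald test called 1 of the list at day 15, the caspase CASP4 (adjusted p = 0.081 in edgeR's quasi-likelihood test), and 1 at day 15 after withdrawal, the inflammasome sensor NLRP1 (adjusted p = 0.0611), and 0 at the other 4 time points.

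Genes whose log2 CPM followed each member most closely over the 36 libraries were listed by Pearson's r, as a description in which the libraries share their treatment groups and depth. For IL1A, they were ELK3 (0.901), ABAT (0.896), CTSC (0.887), JCAD (0.886) and MIR3142HG (0.881). For IL1B, they were NT5E (0.939), KCNMA1 (0.938), EIF2AK4 (0.929), CTSS (0.929) and BHLHE41 (0.925). For IRAK2, they were BID (0.974), the gene ENSG00000143466 without a matched symbol (0.960), TNFAIP3 (0.949), SLCO2B1 (0.948) and PLAUR (0.948). No gene was on more than 1 of these 3 lists.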

How the data were processed

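RNA from A549 cells was sequenced by the authors after preparation with a stranded kit, and the deposited values are HTSeq counts of reads per Ensembl gene on GRCh37, without normalization. The submitters' processing notes name bcl2fastq 2.17, TopHat2 2.0.14, Bowtie2 2.2.5 and HTSeq 0.6.1. The strand setting and annotation release are not given in the sources used here. Groups were taken from the library titles. Of 39471 genes with any count, 19180 passed filterByExpr and were fitted with edgeR 4.0.16 (R 4.3.3; TMM, 12 group terms, 24 residual degrees of freedom). Summary lines, with 8.48% to 18.6% of reads on no gene, were left out. Positions and exon lengths come from GENCODE v44lift37, matched for 55665 genes. The fit was checked on simulated counts. Other scalings, filters and tests, a replicate block, each replicate left out and the high mitochondrial share were tried as alternatives. Intervals and the floor of 3 reads cover counting error only.

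The members and lists were chosen with earlier results of these data known. All 10 members were named, with any gene of the other lists past both thresholds, the 5 genes most like each member past both thresholds at day 21, and CXCL8, TNFAIP3 and NFKBIA as a check of the stimulus. CAPN2, CASP4, NLRP1 and COL1A1 were named after their values were seen. DESeq2 1.42.0 was an alternative test.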

Additional observations from a re-analysis of the deposited data

Results flagged for a closer look

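The response of IRAK2 to IL-1β differed between day 30 after withdrawal and day 21 of exposure by -1.49 ± 0.34 (SE) on the log2 scale, by edgeR's test of the difference between the 2 responses (adjusted p = 0.0261). With the 11 libraries of high mitochondrial share left out, the difference was -1.86 (edgeR adjusted p = 0.00157), but it no longer passed without replicate 1 or without replicate 3 (adjusted p = 0.575 in each case). In the exposed libraries, IRAK2 was at 76.5 to 108 CPM at day 21 and 14.5 to 18.7 CPM at day 30 after withdrawal. In the control libraries it was also lower at the later time, at 7.08 to 15.1 CPM against 21.5 to 23.6 CPM. The control library of 7.08 CPM has a high mitochondrial share, as has the exposed library of 76.5 CPM. The remaining control libraries of day 30 after withdrawal held 11.7 and 15.1 CPM. The groups of 3 libraries were too small for a test of single libraries that stand apart.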

How the results depend on the processing

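The 3 members past both thresholds at days 15 and 21 were called as 3 members under every alternative run. At day 6, the count of 2 became 1 with any 1 replicate left out (range 1 to 1), with each time point fitted alone and at an adjusted p under 0.01. At day 6 after withdrawal, the count of 1 became 0 under the same alternatives (range 0 to 0 over the replicates left out). At day 15 after withdrawal, edgeR's likelihood ratio test gave 1 in place of 0, IL1B with an adjusted p of 0.0386. The count of responses that differ between day 30 after withdrawal and day 21 was 0 to 1 with a replicate left out. IL1A at day 6 was also called with the likelihood ratio test (adjusted p = 0.0245) and with a high mitochondrial share as covariate (adjusted p = 0.0408). With few reads in controls, depth limits the ligands, IL1RN, IRAK3 and IL1R2.

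With a replicate block, the count at the 6 time points was 2, 3, 3, 1, 0 and 0, and no call on a member changed. With the block set within each time point, the counts were also 2, 3, 3, 1, 0 and 0. The labels give only a replicate number. Deviations of libraries with the same number correlated by over 0.1 in 14 of 18 pairs (mean 0.279), in all 3 pairs at day 21 and at day 30 after withdrawal and in fewer at the other 4 time points. The highest values, 0.704 and 0.718, were for replicates 2 and 3 at day 6 after withdrawal, beside -0.114 for replicate 1. The correlations therefore do not settle whether replicates were paired, and 8 of the 11 mitochondrial-rich libraries share replicate number 2. With total counts only, the median log2 change over all genes moved by up to 0.19, at day 15 after withdrawal.

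Of the values of single members, 755 kept their direction and call, 41 turned in sign, 8 lost and 4 gained a call. None of the values that turned was a call. For the IL1B values of -1.56, 0.65 and 1.19 and the IL1A value of 4.60 below, a control group was left without a read. For the others, the cause was not tested. Below, "after" means after withdrawal and "minus" a difference of responses, on the log2 scale. With the replicate block within each time point, the value that turned was IL1A 0.061 (day 15 after). With the 11 mitochondrial-rich libraries left out they were IL1B 1.19 (day 6 after minus day 21), IL1R1 -0.064 (day 21 minus day 6), MYD88 0.029 (day 6), 0.19 (day 6 after), 0.22 (day 15 after), -0.027 (day 30 after), -0.025 (day 21 minus day 6), 0.19 (day 6 after minus day 21) and -0.031 (day 30 after minus day 21), IRAK1 0.26 (day 15), IRAK4 -0.015 (day 6 after). With that share as covariate they were IL1R1 0.036 (day 6 after), MYD88 -0.026 (day 15), -0.054 (day 21), 0.050 (day 6 after) and 0.072 (day 15 after). With total counts only they were IL1R1 0.0056 (day 6 after), 0.053 (day 15 after) and 0.0061 (day 30 after), MYD88 0.17 (day 15 after). Over the replicates left out, the values that turned in at least 1 case ranged as IL1A -1.66 to 4.60 (day 15 after), IL1B -1.56 to 3.53 (day 21 minus day 6), -2.54 to 0.65 (day 6 after minus day 21), IL1R1 -0.11 to 0.048 (day 6 after), IL1RAP -0.16 to 0.58 (day 15 after), MYD88 -0.25 to 0.024 (day 6), -0.037 to 0.23 (day 15), -0.030 to 0.12 (day 21), -0.18 to 0.12 (day 6 after), -0.23 to 0.052 (day 15 after), -0.038 to 0.38 (day 30 after), -0.054 to 0.36 (day 21 minus day 6), -0.29 to 0.0045 (day 6 after minus day 21), -0.0079 to 0.27 (day 30 after minus day 21), IRAK1 -0.35 to 0.11 (day 15), -0.018 to 0.076 (day 21), IRAK4 -0.026 to 0.18 (day 6 after), -0.077 to 0.19 (day 15 after), -0.027 to 0.31 (day 21 minus day 6). Among the other named genes, 0 turned in sign.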
